A study of Mus musculus with 18 samples.

Results

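Ly-6C(hi) monocytes and neutrophils, the main myeloid cells of mouse bone marrow, were compared with each other gene by gene in mice without Zeb2 deletion. All arrays of the series with a Zeb2-sufficient, poly(I:C)-treated source were taken, which gave 8 of 18 arrays, 4 of monocytes and 4 of neutrophils. The donors were C57BL/6 mice whose Zeb2 alleles were floxed, Zeb2(fl/fl), and carried no Cre in the labels. Both groups shared the floxed alleles and poly(I:C), a double-stranded RNA that induces interferon. It was injected into the peritoneum in 2 doses of 150 µg inside 48 h, and marrow was spun from the bones 3 weeks after that. The other 10 arrays of the series were 8 labelled Zeb2-deficient, which entered the fit for its estimate of spread only, and 1 untreated Zeb2(fl/fl) array of each cell type. The labels give neither age nor sex, nor whether the arrays within a group are from different mice, so p-values measure only the spread of these arrays and part of it may be technical. Arrays are called here by the numbers in their titles, 1, 2, 4 and 5 in each cell type.

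Monocytes and neutrophils arise in the marrow from shared granulocyte and monocyte progenitors and then part ways. Neutrophil precursors make their granules in sequence, first the azurophil or primary granules with myeloperoxidase and serine proteases, then the secondary or specific granules, then gelatinase granules, and they stop dividing and lobulate the nucleus as they mature. Ly-6C(hi) monocytes leave the marrow through the chemokine receptor CCR2 and can become macrophages or dendritic cells in tissue. Both cells engulf microbes, sense them with pattern recognition receptors and kill them with the NADPH oxidase.

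Every value below is a log2 intensity from the array after robust multi-array averaging (RMA), so a difference of 1 is 2-fold. Differences are monocyte minus neutrophil, given with their standard error (SE), and adjusted p-values come from limma with Benjamini-Hochberg adjustment over all 13387 genes tested. A gene is called different, higher or lower where that adjusted p was under 0.05. The 40th percentile of an array, 4.30 to 4.37 in the monocyte arrays and 4.41 to 4.46 in the neutrophil arrays, served as the level below which a signal cannot be told from background here. Where one cell type lies below it, the fold is a lower bound. Probe sets differ in how strongly they bind, so levels are compared between cells for a gene and not between genes.

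Of the genes tested, 7846 (58.6%) differed. Of these, 3998 (29.9% of genes tested) had the higher mean in monocytes and 3848 (28.7%) in neutrophils. Counts given for gene lists below are to be read beside these shares. The median difference over all tested genes was -0.077. The differences had unequal shapes on either side. At least 2-fold differences were more numerous in monocytes, 1804 genes (13.5%) against 958 (7.16%), and at least 4-fold ones too, 473 against 319. The most extreme were about as numerous each way, 55 and 57 genes at 16-fold or more and 14 and 13 at 64-fold or more. In 386 of the 1804 genes at least 2-fold higher in monocytes (21.4%) the neutrophil mean lay below the 40th percentile, and in 107 of the 958 genes at least 2-fold higher in neutrophils (11.2%) the monocyte mean did.

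**Figure D1:**
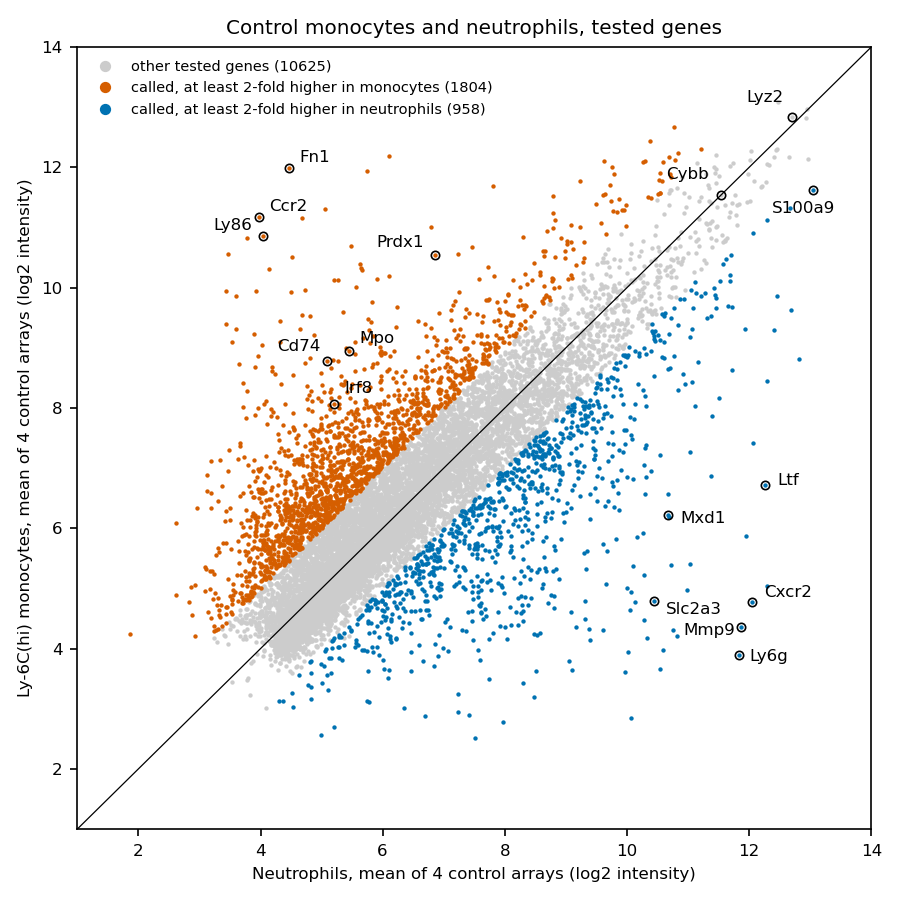
Mean log2 intensity of each of the 13387 genes tested in 4 control monocyte arrays (vertical axis) against 4 control neutrophil arrays (horizontal axis). Genes called at 2-fold or more are coloured (1804 higher in monocytes, 958 higher in neutrophils), and named points show that genes such as Ccr2 and Ly6g sit near the array floor in one cell type and near its top in the other, while Cybb and Lyz2 lie on the diagonal.

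The 8 arrays fell into 2 sets within each cell type, arrays 1 and 2 against arrays 4 and 5, and the sets carried opposite sex-linked signals. Xist, the RNA that coats the inactive X chromosome of female cells, read 2.76, 3.13, 9.72 and 9.64 in monocyte arrays 1, 2, 4 and 5 and 2.58, 3.19, 8.63 and 8.51 in the neutrophil arrays in the same order. Eif2s3y, a gene of the Y chromosome, read 8.23, 8.10, 2.29 and 2.19 and 8.96, 8.98, 2.86 and 2.80. Both untreated arrays had the pattern of arrays 1 and 2, with Xist at 2.85 and 2.57. Each set held 2 arrays of each cell type, so the comparison was balanced over the sets, and sex and anything else that set them apart cannot be told apart. All 1804 and all 958 genes that differed at least 2-fold had the same direction in both sets, which is partly fixed by choosing them on the same arrays. Below, the value within a set is given for each named gene whose call changed within it.

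Ly6g and Csf1r followed the cell type labels. Of 8 surface markers of these cells tested, 3 were higher in monocytes, 3 in neutrophils and 2 did not pass. That was 75% called, beside 58.6% of all genes tested. Ly6g, the surface antigen that defines mouse neutrophils, read 3.59, 3.59, 4.48 and 3.95 in the monocyte arrays and 11.94, 12.06, 11.66 and 11.69 in the neutrophil arrays. The neutrophil mean of 11.84 ± 0.19 (SD, n = 4) lay at least 245-fold above the monocyte mean of 3.90 ± 0.42 (SD, n = 4) (limma adjusted p = 1.17e-14). The monocyte values lay around the background level, with array 4 the highest. Csf1r, the receptor for the monocyte growth factor CSF1, was 4.07-fold higher in monocytes, with values of 9.59, 9.78, 9.41 and 9.47 against 7.78, 7.56, 7.46 and 7.35. The macrophage antigen Adgre1 (F4/80) was 2.95-fold higher in monocytes, and the CD11b gene Itgam 2.58-fold higher in neutrophils. Cd14, the endotoxin co-receptor, did not pass the test (difference -0.19, 95% interval -1.21 to 0.82), and in both cell types it was higher in arrays 4 and 5 (5.51, 6.19, 7.29 and 7.59 in monocytes, 6.47, 6.05, 7.55 and 7.27 in neutrophils). The probe sets of Ly6c1 and Ly6c2 carry both names and were not analysed here.

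Markers of other cells were read as lists, and most lists held members that differed. B cell markers averaged 4.98 to 5.11 per array in monocytes and 4.91 to 5.07 in neutrophils over 8 genes tested. Only Cd79b, a chain of the B cell receptor, was at least 2-fold apart among them (6.50, 6.28, 6.36 and 6.45 in monocytes, 4.85, 5.07, 4.59 and 4.72 in neutrophils). Cd3d, a chain of the T cell receptor complex, read 7.31, 6.89, 6.79 and 6.39 in neutrophils and 3.78, 3.51, 3.81 and 3.75 in monocytes. Cd3e, its partner, averaged 5.15 in monocytes and 5.29 in neutrophils and did not pass. Hdc, which makes histamine and is best known from mast cells and basophils, averaged 10.72 ± 0.030 (SD, n = 4) in neutrophils and 5.39 ± 0.51 (SD, n = 4) in monocytes, a 40.2-fold difference. The basophil protease Mcpt8 lay at 4.80 in neutrophils and did not pass. Of 9 eosinophil, basophil and mast cell markers tested, 4 were higher in neutrophils (44.4% called, beside 58.6% of all genes tested). Platelet markers averaged 4.56 to 5.50 in monocytes and 5.04 to 6.11 in neutrophils, and 4 of 9 were higher in neutrophils, also 44.4%. Clec1b, the platelet receptor CLEC-2, read 3.90, 4.14, 4.85 and 3.84 in monocytes and 6.04, 5.70, 6.43 and 6.68 in neutrophils. Pf4, platelet factor 4, ranged widely between arrays, at 7.67, 3.96, 5.64 and 4.50 in neutrophils and 2.97, 4.15, 5.55 and 4.18 in monocytes, and did not pass, although it did within arrays 1 and 2 (-2.25). Erythroid markers averaged 4.38 to 4.63 and 4.61 to 5.28. Of 10 macrophage and stromal markers 6 were higher in neutrophils and 2 in monocytes (80% called), with differences from -0.60 to 0.83. Of 11 dendritic cell markers 5 were higher in monocytes and 4 in neutrophils (81.8% called). Bst2, an antigen of plasmacytoid dendritic cells that interferon also induces, read 7.14, 7.65, 7.98 and 8.29 and 5.61, 5.78, 5.86 and 5.42 in monocytes and neutrophils. Of 9 stem and progenitor markers 4 were higher in each cell type (88.9% called). Cd48, a surface protein of progenitors and of many mature leukocytes, averaged 9.95 ± 0.17 (SD, n = 4) in monocytes and 4.73 ± 0.71 (SD, n = 4) in neutrophils. The part of these cells in the differences below was not tested, and in bulk samples more cells of a type and more RNA per cell cannot be told apart.

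Transcription factors known for monocyte and dendritic cell development included several that were higher in monocytes. Irf8, which drives monocyte and dendritic cell fate, was 7.27-fold higher in monocytes, with 8.09, 8.13, 8.04 and 8.02 against 5.01, 4.95, 5.44 and 5.43 and a difference of 2.86 ± 0.18 (SE, adjusted p = 3.34e-10 by limma). Klf4, another factor needed for monocytes, was 10.4-fold higher. Irf5, which controls inflammatory cytokine genes, was 6.68-fold higher. The zinc-finger repressor Zeb2, the gene floxed in these mice, was 6.40-fold higher in monocytes (10.08, 9.88, 9.88 and 9.86 against 7.19, 6.86, 7.54 and 7.40). Irf4 and the E protein Tcf4 were also higher in monocytes, by 2.35 and 1.89, the former a lower bound. Zeb1, the paralog of Zeb2, went the other way, at 5.20, 4.91, 5.28 and 4.74 in monocytes and 7.30, 7.20, 7.53 and 7.22 in neutrophils, a difference of -2.28 ± 0.18 (SE, limma adjusted p = 5.26e-09). The paralogs had opposite orders, and the values of neither overlapped between the cells, as was the case for 56.2% of all genes tested.

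On the neutrophil side, the largest excess in the granulocyte list was that of Mxd1, a MAX partner that opposes MYC. It read 10.61, 10.60, 10.70 and 10.76 in neutrophils and 5.81, 6.14, 6.30 and 6.63 in monocytes, a 21.8-fold difference. Myc itself was 3.58-fold higher in monocytes (6.05, 6.53, 6.36 and 6.22 against 4.42, 4.64, 4.85 and 3.88), so these antagonists had opposite orders, and their shared partner Max was 2.99-fold higher in neutrophils. Cebpe, which directs secondary granule formation, was 6.53-fold higher in neutrophils (8.94, 8.80, 8.95 and 9.12 against 5.27, 6.04, 6.96 and 6.72). Klf5, Ets1, Erg and Satb1 were higher there, with differences of -3.11, -2.89, -2.80 and -2.75. Cebpa, which acts early in both lineages, was slightly higher in monocytes (0.87 ± 0.14 SE). Spi1, the master factor PU.1, was higher in neutrophils (-0.73). Of 37 granulocyte and progenitor factors tested, 67.6% were called, beside 58.6% of all genes tested. Of them 17 were higher in neutrophils and 8 in monocytes, with a median of -0.23. Of 28 monocyte and dendritic cell factors, 64.3% were called, 12 higher in monocytes and 6 in neutrophils (median 0.23). Early growth response factor Egr1 was one of the latter, at 7.25, 8.10, 8.03 and 8.0 in neutrophils and 5.39, 5.58, 5.74 and 5.83 in monocytes.

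**Figure D2:**
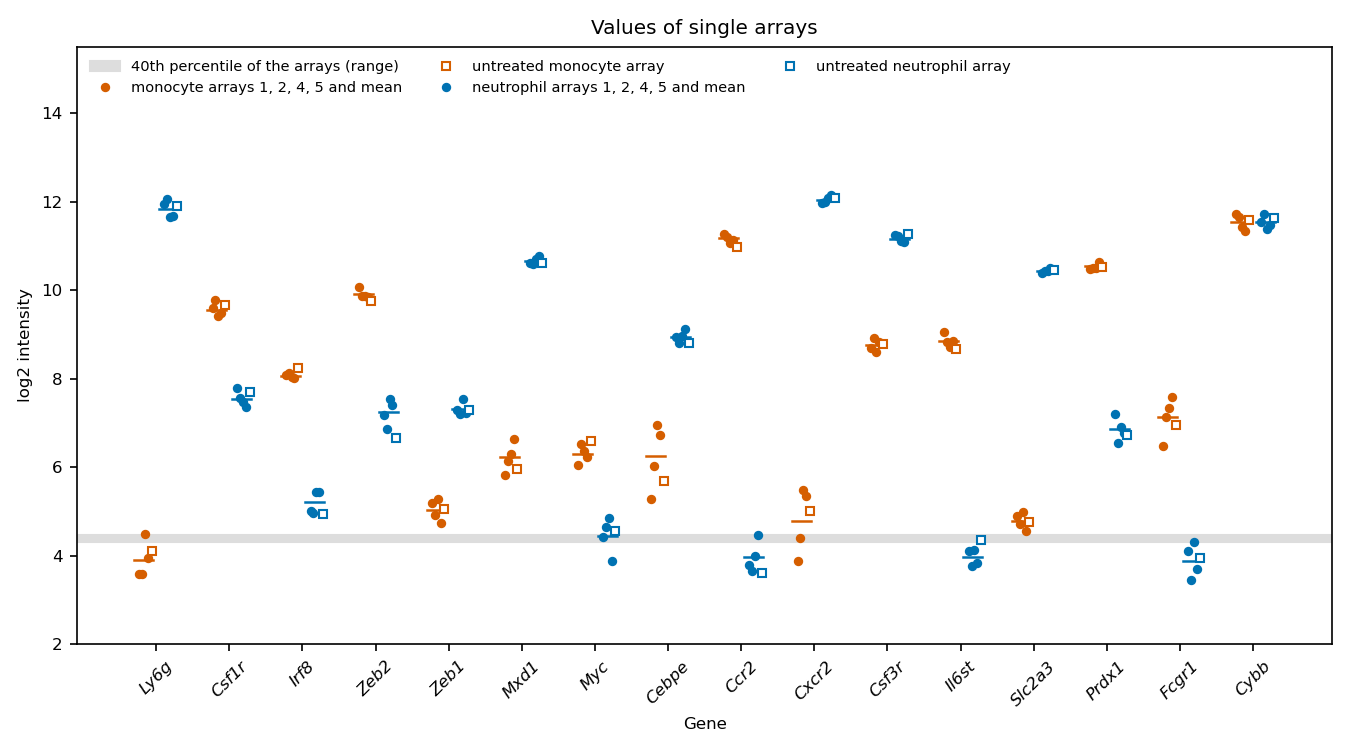
Log2 intensity of 16 genes in each control array: filled points for monocyte arrays 1, 2, 4 and 5 (orange) and neutrophil arrays 1, 2, 4 and 5 (blue), and open points for the single untreated array of each cell type. Bars mark the mean of the 4 filled points and the shaded band is the range of the arrays' 40th percentiles, so Ly6g in monocytes and Ccr2 in neutrophils sit at the background level while Cybb is level in both.

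Growth factor and cytokine receptors differed in both directions. Csf3r, the receptor for the granulocyte growth factor G-CSF, was 5.31-fold higher in neutrophils, yet monocytes read 8.70, 8.91, 8.60 and 8.83 against 11.24, 11.22, 11.12 and 11.09, well above the background level. Il1r2, a decoy that binds IL-1 without signalling, averaged 10.32 ± 0.24 (SD, n = 4) in neutrophils and 4.17 ± 0.48 (SD, n = 4) in monocytes, at least 70.9-fold apart. Both chains of the IL-18 receptor, Il18r1 and Il18rap, read 7.97, 7.75, 7.49 and 7.74 and 9.34, 9.58, 9.37 and 9.29 in neutrophils. In monocytes they read 3.59, 3.30, 3.91 and 3.16 and 4.23, 4.04, 4.18 and 4.11, all below the 40th percentile. Il18, the ligand, was 3.02-fold higher in monocytes (6.31, 6.10, 6.36 and 6.65 against 4.59, 4.77, 5.01 and 4.70), so ligand and receptor had opposite orders.

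The shared signalling chain of the IL-6 family, Il6st (gp130), was at least 30.0-fold higher in monocytes, at 9.05, 8.83, 8.73 and 8.84 against 4.11, 3.77, 4.12 and 3.83. Its IL-6 binding partner Il6ra was 2.32-fold higher there. Osm, oncostatin M, a ligand that signals through gp130, was 10.4-fold higher in neutrophils (8.43, 8.49, 8.96 and 8.84 against 5.24, 5.26, 5.44 and 5.26). Receptors for interferon-gamma (Ifngr1, 2.60-fold), IL-10 (Il10ra, 3.96-fold) and TNF (Tnfrsf1b, 3.97-fold) were higher in monocytes. The interferon receptor chain Ifnar1 did not pass (0.26, 95% interval -0.10 to 0.62), but did with the sets as a block (limma adjusted p = 0.0239). Over the 33 receptors tested, 14 were higher in neutrophils and 8 in monocytes (median -0.16), or 66.7% called beside 58.6% of all genes tested.

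Receptors for chemoattractants, which guide cells out of the marrow and into tissue, differed in both directions. Ccr2, through which monocytes leave the marrow, read 11.28, 11.20, 11.07 and 11.14 in monocytes and 3.78, 3.66, 3.98 and 4.46 in neutrophils, at least 147-fold apart. Cxcr2, which draws neutrophils out of the marrow, averaged 12.05 ± 0.081 (SD, n = 4) in neutrophils and read 3.88, 4.40, 5.49 and 5.36 in monocytes, a 154-fold difference. Cx3cr1, the fractalkine receptor, was 19.1-fold higher in monocytes. Cxcr4, which holds cells in the marrow, was high in both and 2.12-fold higher in neutrophils (11.09, 11.13, 10.96 and 11.03 against 10.03, 9.93, 9.93 and 9.99). Receptors for complement C5a (C5ar1, 17.1-fold), the chemokines of CCR1 (9.39-fold) and the medium-chain fatty acid receptor Gpr84 (7.21-fold) were higher in neutrophils.

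Receptors for lipids and nucleotides differed in both directions as well. Ltb4r1, the leukotriene B4 receptor, was 2.51-fold higher in neutrophils, while Cysltr1, the receptor for cysteinyl leukotrienes, was at least 10.2-fold higher in monocytes. The ATP-gated channels P2rx7 and P2rx4 were 9.65- and 3.56-fold higher in monocytes, and the ADP receptor P2ry13 was 14.7-fold higher in neutrophils. Gpr183, which senses oxysterols, was 5.28-fold higher in monocytes. In all, 14 of 29 receptors tested were higher in neutrophils and 11 in monocytes (median -0.37).

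Cytokine and chemokine transcripts differed in both directions. Neutrophils were higher in Il1b (10.99, 10.90, 11.05 and 11.15 against 4.57, 5.25, 5.76 and 6.04, 49.2-fold), in the IL-36 family cytokine Il1f9 (at least 117-fold), in the neutrophil chemoattractant Cxcl2 (23.1-fold) and in Tnf (4.25-fold). They were also higher in Il1rn, the IL-1 receptor antagonist (9.54-fold), in Tnfsf13b, the B cell survival factor BAFF (5.41-fold), and in Prok2 (Bv8, 4.42-fold). Monocytes were higher in the chemokines Ccl9 (25.6-fold), Ccl2 (8.23-fold) and Cxcl10 (5.58-fold), in Tgfb1 (3.08-fold) and in Mif (2.53-fold). Ccl2, the main ligand of CCR2, read 7.54, 7.60, 9.16 and 9.25 in monocyte arrays 1, 2, 4 and 5 and 5.33, 5.18, 5.70 and 5.17 in the neutrophil arrays. It was therefore higher in every monocyte array than in every neutrophil array, and higher in monocyte arrays 4 and 5 than in 1 and 2. Counts over the 31 cytokines tested were 15 higher in neutrophils and 9 in monocytes (median -0.26).

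Integrins, which pair an alpha with a beta chain, differed by chain. The beta 2 integrin chain Itgb2 and its partners Itgam, Itgal and Itgax, which bind ICAMs and complement, were higher in neutrophils, with differences of -1.42, -1.37, -0.79 and -1.72. Itgb2l, a chain related to Itgb2, read 10.38, 10.50, 10.14 and 10.08 in neutrophils and 5.18, 4.74, 6.04 and 4.92 in monocytes. The beta 1 and beta 7 chains Itgb1 and Itgb7 and their partners Itga4, Itga5 and Itga1, which bind VCAM-1, fibronectin and collagen, were higher in monocytes, by 2.33, 2.54, 2.08, 1.93 and 3.76. Itgax in monocytes and Itga1 in neutrophils lay below the 40th percentile. Fn1, fibronectin itself, read 12.08, 12.12, 11.88 and 11.85 in monocytes and 4.59, 4.40, 4.70 and 4.15 in neutrophils. The neutrophil adhesion proteins Ceacam10, Jaml and Cd177 were 97.4-, 9.58- and 4.03-fold higher in neutrophils, the first a lower bound. Cd177 was still 8.74, 8.87, 8.68 and 8.33 in monocytes.

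The granule genes did not follow a single order. Of 31 genes tested in the secondary and gelatinase granule list, 28 were higher in neutrophils and the other 3 did not pass, with a median of -4.0. That list was broad and also held Ltb4r1, a receptor named above, Dstn, Retnlg and the stefin genes Stfa2 and Stfa3. Its counts and median therefore do not describe granule proteins alone. Ltf, the iron-binding protein lactoferrin of specific granules, read 12.25, 12.41, 12.15 and 12.23 in neutrophils and 5.70, 5.71, 8.30 and 7.17 in monocytes, a 46.6-fold difference. Mmp9, the gelatinase, was at least 182-fold higher in neutrophils. Mmp8, the neutrophil collagenase, was 6.03-fold higher, and monocytes read 9.84, 10.01, 9.73 and 9.86. Chil3, a chitinase-like protein, did not pass (10.45, 10.88, 11.39 and 11.73 in monocytes, 11.34, 11.46, 11.20 and 11.56 in neutrophils). It passed within arrays 1 and 2 (-0.73) and after quantile normalization (-0.70). Retnlg, Chil1, Olfm4, Lrg1, Camp, Ngp and Pglyrp1 were 153-, 63.8-, 42.2-, 67.5-, 8.33-, 8.67- and 14.3-fold higher in neutrophils.

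Of 16 genes tested in the primary granule list, 6 were higher in monocytes, 3 in neutrophils and 7 did not pass (median 0.62). That was 56.25% called, beside 58.6% of all genes tested. Members of this list included Clec11a, Ms4a3, Igll1, which is also in the B cell list, and Hp, which is in both granule lists. The counts and the median are those of the list and not of primary granule proteins alone. With the array set as a block the counts were 9 and 4, and within arrays 4 and 5 they were 10 and 3. Peroxidase and several proteases had the opposite order to secondary granule genes. Mpo, myeloperoxidase, read 8.0, 7.42, 10.66 and 9.72 in monocytes and 5.96, 4.82, 6.13 and 4.87 in neutrophils (11.4-fold, difference 3.51 ± 0.61 SE, limma adjusted p = 8.94e-05). Elane, neutrophil elastase, read 7.08, 6.64, 9.78 and 8.96 and 5.04, 5.01, 4.85 and 5.03, and Prtn3, proteinase 3, 6.94, 6.93, 8.72 and 8.33 and 4.88, 4.78, 5.04 and 5.25. Ctsg, cathepsin G, was at least 6.96-fold higher in monocytes. Ctsc, dipeptidyl peptidase I, which activates these proteases, was 27-fold higher in monocytes and did not overlap (10.40, 10.38, 10.28 and 10.48 against 4.88, 5.14, 6.32 and 6.19). Serpinb1a, an inhibitor of elastase, and Srgn, the proteoglycan that packs granule proteins, were 5.92- and 3.09-fold higher in neutrophils. Lysozyme (Lyz2) did not pass (0.14, 95% interval -0.027 to 0.30), but did within arrays 4 and 5 (0.22), with the sets as a block (adjusted p = 0.0207 by limma) and in the fit of the 8 control arrays alone (0.0454).

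Many granule genes in monocytes were higher in arrays 4 and 5 than in arrays 1 and 2. Both arrays of the former set lay above both of the latter for 11 of 16 tested members of the primary granule list. In the secondary and gelatinase granule list this held for 18 of 31, while 3 lay below and 10, such as Mmp8, had no such order. How common this order was over all genes tested was not counted, so the counts do not show whether granule genes stand out. Mpo in monocytes was lower in arrays 1 and 2 than in arrays 4 and 5, and so were Elane and Prtn3. Within arrays 1 and 2 the Mpo difference was 2.32 and within arrays 4 and 5 it was 4.69. For Elane the corresponding values were 1.83 and 4.43. Ltf differed by -6.63 within arrays 1 and 2 and by -4.45 within arrays 4 and 5, Camp by -4.34 and -1.78, and Cd63, a granule membrane tetraspanin, by -5.34 and -2.18. The list medians were -0.020 and 1.09 for primary granules and -4.72 and -2.96 for secondary and gelatinase granules. Ly6g in the monocyte arrays, listed above, was at most 4.48. The part of other marrow cells in the monocyte sort in these granule values was not tested.

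**Figure D3:**
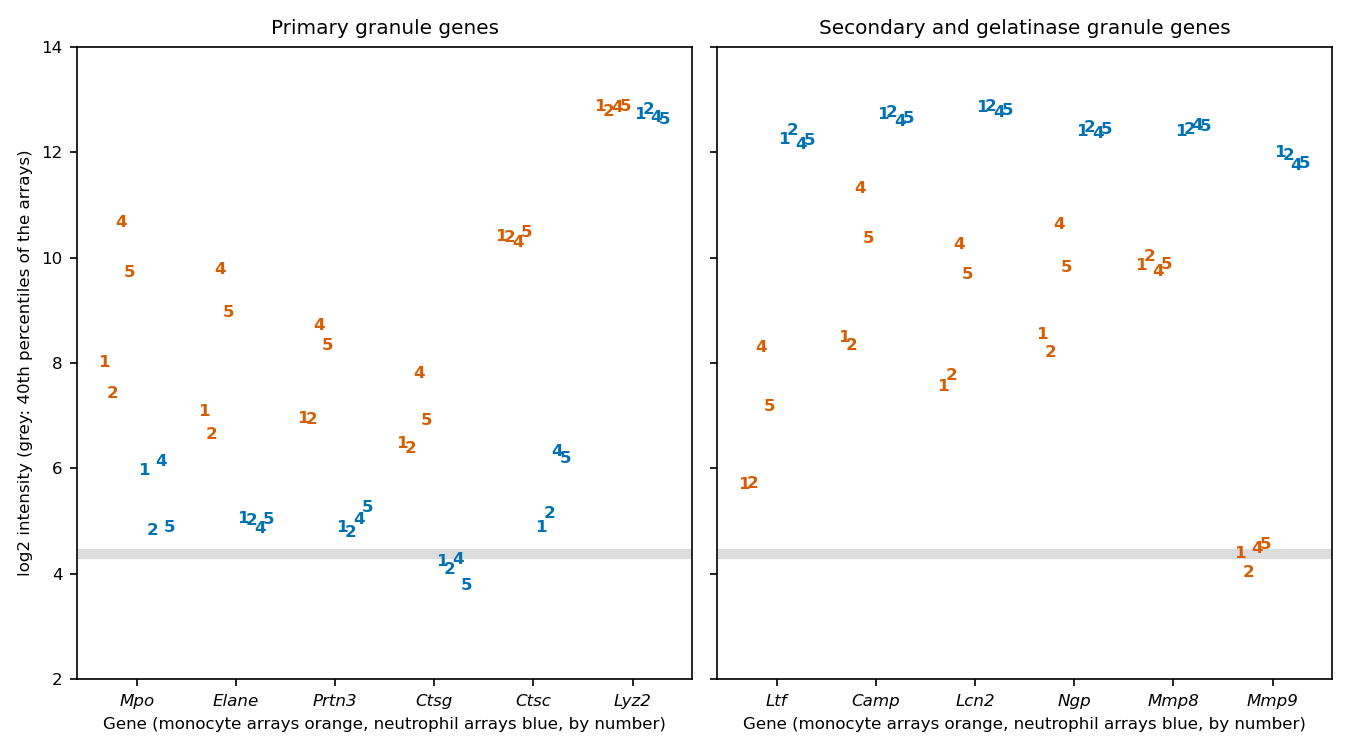
Log2 intensity of 6 primary granule genes (left) and 6 secondary or gelatinase granule genes (right) in each control monocyte array (orange) and neutrophil array (blue), labelled by array number. Arrays 4 and 5 lie above arrays 1 and 2 in monocytes for Mpo, Elane, Prtn3, Ltf and Camp, while the neutrophil arrays stay close together for the secondary granule genes.

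Promoters were read for motifs of the factors described above, and those of 2 granule genes are shown. The 250 bases before the RefSeq start were searched on both strands for 11 motifs, in genes at least 8-fold higher in either cell. TTGCNNAA, a core recognised by C/EBP factors, was present before 17.6% of 119 neutrophil genes, 9.73% of 113 monocyte genes and 8.77% of all 10628 tested genes with a promoter in the table. GAGGAA, a core of PU.1 and other ETS factors, was present before 42.9%, 26.5% and 26.1%. The other motifs searched were the KLF element GGGTGTGG, the E-box CACGTG, the AP-1 site TGANTCA, the CRE site TGACGTCA, the CCAAT box and the TATA core TATAAA, and, by name, an ETS-IRF composite element and an NF-kappaB element. CCAAT, a common promoter element, was present before 39.5%, 32.7% and 39.1%, and the others before at most 13.4% of any of these sets. In the same order, TATAAA had 13.4%, 11.5% and 8.51%, TGANTCA 8.40%, 9.73% and 5.81%, and GGGTGTGG 7.56%, 6.19% and 4.32%. The ETS-IRF element had 3.36%, 5.31% and 2.38% and the NF-kappaB element 2.52%, 1.77% and 0.499%. Both sets were below all genes for CACGTG (5.04%, 8.85% and 9.51%) and TGACGTCA (0.84%, 0.885% and 2.84%). Motifs may overlap one another. These shares describe letters and are no evidence of binding. The promoters of Ltf and Ngp, both secondary granule genes, each have TTGCNNAA matches, shown in capitals, read 5′ to 3′ on the gene's strand in GRCm38.p6 (Ltf at chr9:111019042-111019291, plus strand, and Ngp at chr9:110419558-110419807, plus strand).
Ltf: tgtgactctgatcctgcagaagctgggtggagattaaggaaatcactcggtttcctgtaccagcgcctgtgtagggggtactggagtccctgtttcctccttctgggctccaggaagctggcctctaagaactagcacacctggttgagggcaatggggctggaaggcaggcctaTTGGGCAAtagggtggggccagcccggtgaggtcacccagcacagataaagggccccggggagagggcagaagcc
Ngp: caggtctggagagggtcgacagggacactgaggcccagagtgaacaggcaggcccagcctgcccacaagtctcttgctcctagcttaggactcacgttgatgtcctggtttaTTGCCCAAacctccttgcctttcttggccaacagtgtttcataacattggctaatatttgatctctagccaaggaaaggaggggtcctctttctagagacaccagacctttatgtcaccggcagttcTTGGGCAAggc

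Both cells carried the NADPH oxidase, with its subunits unequal. Cybb, the catalytic gp91phox, was level, with 11.72, 11.65, 11.42 and 11.35 in monocytes and 11.54, 11.72, 11.39 and 11.49 in neutrophils and a difference of 0.00093 (95% interval -0.34 to 0.34). Cyba, its membrane partner, did not pass (-0.32). It did in the fit of the 8 control arrays alone (limma adjusted p = 0.0185), with the array set as a block (0.00792), within arrays 1 and 2 (-0.55) and after quantile normalization (-0.63). The cytosolic activators Ncf1 (p47phox) and Ncf4 (p40phox) and the GTPase Rac2 were 4.10-, 2.38- and 2.34-fold higher in neutrophils. Antioxidant enzymes differed in both directions. The peroxiredoxins Prdx1, Prdx2, Prdx3 and Prdx4 were 12.8-, 11.7-, 4.91- and 5.82-fold higher in monocytes, and catalase (Cat) 4.46-fold. Prdx1 read 10.48, 10.51, 10.51 and 10.64 against 7.20, 6.54, 6.91 and 6.78. Glutathione reductase (Gsr) and the glutathione synthesis subunit Gclm were 2.69- and 3.62-fold higher in neutrophils, whereas the catalytic subunit Gclc was at least 2.48-fold higher in monocytes.

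Of 53 pattern recognition receptors tested, 27 were higher in monocytes and 15 in neutrophils (median 0.36), beside 29.9% and 28.7% of all genes tested. Several that sense nucleic acids inside the cell were higher in monocytes. Tlr7 and Tlr9, receptors for RNA and DNA in endosomes, were 4.03- and 5.55-fold higher in monocytes (7.72, 8.04, 7.81 and 8.07 against 5.60, 5.25, 5.29 and 5.61 for Tlr9). Sting1, the adaptor of cytosolic DNA sensing, was 7.17-fold higher. Ly86 (MD-1) and Cd180 (RP105), which form a complex on the surface, were both higher in monocytes, at least 113-fold and 37.1-fold, and Cd180 read 10.80, 10.62, 10.71 and 10.65 against 5.48, 5.25, 5.86 and 5.34. The flagellin inflammasome sensor Nlrc4 was at least 5.30-fold higher and the scavenger receptor Msr1 at least 61.9-fold higher.

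Ddx58 (RIG-I), a sensor of viral RNA, went the other way and was 2.08-fold higher in neutrophils. Surface receptors for bacterial and fungal products differed in both directions. Tlr4, the endotoxin receptor, was 2.70-fold higher in neutrophils and Tlr2 1.43-fold, while Tlr1, a partner of TLR2, was 6.36-fold higher in monocytes. The C-type lectins Clec4d and Clec4e, which bind glycolipids of mycobacteria and fungi, were 22.6- and 7.65-fold higher in neutrophils. Their relatives Clec4a1 and Clec4a3, from the same gene family, were 28.9- and 19-fold higher in monocytes. The Toll adaptors also differed, with Ticam2 4.19-fold higher in monocytes and Tirap 3.23-fold higher in neutrophils.

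Fc, complement, paired and inhibitory receptors were mostly higher in neutrophils. Of 35 tested, 28 were higher in neutrophils and 4 in monocytes (median -0.78). Fcgr4, an activating IgG receptor, read 8.82, 8.74, 8.67 and 8.38 in neutrophils and 4.56, 5.25, 5.42 and 6.13 in monocytes. Fcgr1, the high-affinity IgG receptor CD64, had the reverse order, 6.48, 7.14, 7.33 and 7.58 in monocytes and 4.11, 3.44, 4.30 and 3.69 in neutrophils. The inhibitory Fcgr2b was 2.37-fold higher in monocytes. Trem1, which amplifies inflammatory signals, was at least 39-fold higher in neutrophils. The sialic acid receptors Cd33 and Siglece were 10.2- and 7.58-fold higher there, and Cd300lf and Cd300ld 11.9- and 8.42-fold. The shared signalling adaptors Fcer1g and Tyrobp, through which many of these receptors signal, differed by -0.31 and -0.24, and Tyrobp did not pass within arrays 4 and 5 (-0.18).

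Of secreted complement and clotting proteins, monocytes were higher in F13a1, a transglutaminase subunit that crosslinks fibrin (89.1-fold), in coagulation factor F10 (12.4-fold), in Thbd, thrombomodulin (2.78-fold), and in Cfb of the alternative complement pathway (2.31-fold). Neutrophils were higher in Thbs1, thrombospondin 1 (5.13-fold), in the urokinase receptor Plaur (3.30-fold), in F5 (2.88-fold) and in properdin, Cfp (-0.67).

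Antigen presentation genes were higher in monocytes in 19 of 30 tested and higher in neutrophils in 2 (median 0.81). The MHC class II chains H2-Aa and H2-Ab1 and the invariant chain Cd74 were 10.4-, 7.46- and 12.9-fold higher. Cd74 read 8.55, 8.90, 8.99 and 8.67 in monocytes and 5.71, 4.56, 5.18 and 4.91 in neutrophils. Ciita, the activator of class II genes, was low in both and 0.50 higher in monocytes, a call lost within arrays 1 and 2 (0.36). In class I presentation the light chain B2m (-0.092) and the peptide transporter subunit Tap1 (0.16) did not pass, although B2m was -0.39 after quantile normalization (limma adjusted p = 4.39e-05). Psmb10, a subunit of the immunoproteasome, was 4.63-fold higher in monocytes. Among costimulators, Cd80 went the other way and was 2.74-fold higher in neutrophils (7.13, 7.10, 7.72 and 7.03 against 5.83, 6.19, 5.59 and 5.56).

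Lysosomal genes were higher in monocytes in 25 of 38 and in neutrophils in 4 (median 0.82). Ctss, cathepsin S, which trims the invariant chain, read 11.07, 11.07, 10.87 and 11.01 against 6.90, 6.64, 6.68 and 6.97 (18.4-fold). Ifi30, the lysosomal thiol reductase GILT, was 24.8-fold higher. Ctsb, Npc2, Psap and Lamp1 were 4.84-, 5.84-, 3.72- and 3.28-fold higher. Tfec, a member of the TFEB family of lysosomal gene regulators, was at least 16.4-fold higher, while Tfeb itself did not pass (-0.33) except in the fits of the 8 control arrays (adjusted p = 0.0274 by limma) and after quantile normalization (-0.53, 0.00806). The exceptions on the neutrophil side were Cd63 and the aspartic proteases Ctse and Ctsd, at -3.76, -3.14 and -1.05, and the sialidase Neu1, at -0.51, which did not pass within arrays 4 and 5 (-0.31).

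Energy metabolism was divided between the cells. Of 35 glycolysis, pentose phosphate and glycogen genes tested, 21 were higher in neutrophils and 7 in monocytes (median -0.71). The glucose transporter Slc2a3 (GLUT3) read 10.38, 10.43, 10.43 and 10.51 in neutrophils and 4.90, 4.70, 4.99 and 4.55 in monocytes, a 50.3-fold difference. Glycogen enzymes for both synthesis and breakdown were higher in neutrophils, with the branching enzyme Gbe1 7.18-fold, the synthase Gys1 3.07-fold and the phosphorylase Pygl 3.58-fold. The lactate exporter Slc16a3 was 4.78-fold higher and Pfkfb4, which makes an activator of phosphofructokinase, 3.59-fold. Some isoenzymes had opposite orders. Hexokinase Hk3 was 4.27-fold higher in neutrophils, while Hk2 was level (0.011, 95% interval -0.26 to 0.28). The order of Hk1 depended on the probe set. Its brighter one was 1.78-fold higher in monocytes and its other one differed by -0.65, the reverse order. The mean of its probe sets gave 0.091 (adjusted p = 0.490 by limma). Phosphorylase Pygl was higher in neutrophils and Pygb in monocytes (2.44-fold), and lactate dehydrogenase Ldha was -0.98 and Ldhb 1.66.

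Mitochondrial genes were higher in monocytes in 61 of 77 tested, and higher in neutrophils in 2, with a median of 0.75. The chaperones Hspd1 and Hspe1 were 3.94- and 6.16-fold higher, fumarase (Fh1) 6.10-fold, the ATP synthase subunits Atp5a1 and Atp5g1 3.21- and 3.48-fold, and the complex I subunit Ndufb5 3.36-fold. Tfam, which packages mitochondrial DNA, read 5.50, 5.69, 5.65 and 5.70 in monocytes and 3.84, 3.78, 4.12 and 4.56 in neutrophils, where its mean lay below the 40th percentile. Mdh2, the malate dehydrogenase of the citric acid cycle, was an exception, 1.76-fold higher in neutrophils (10.70, 10.81, 10.10 and 10.19 against 9.63, 9.81, 9.50 and 9.61). Polg, the mitochondrial DNA polymerase, was the other, at -0.27. That call was lost without monocyte array 1 or 5 or neutrophil array 1 or 2, at -0.23, -0.25, -0.25 and -0.27, and within either set (-0.31 and -0.24).

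**Figure D4:**
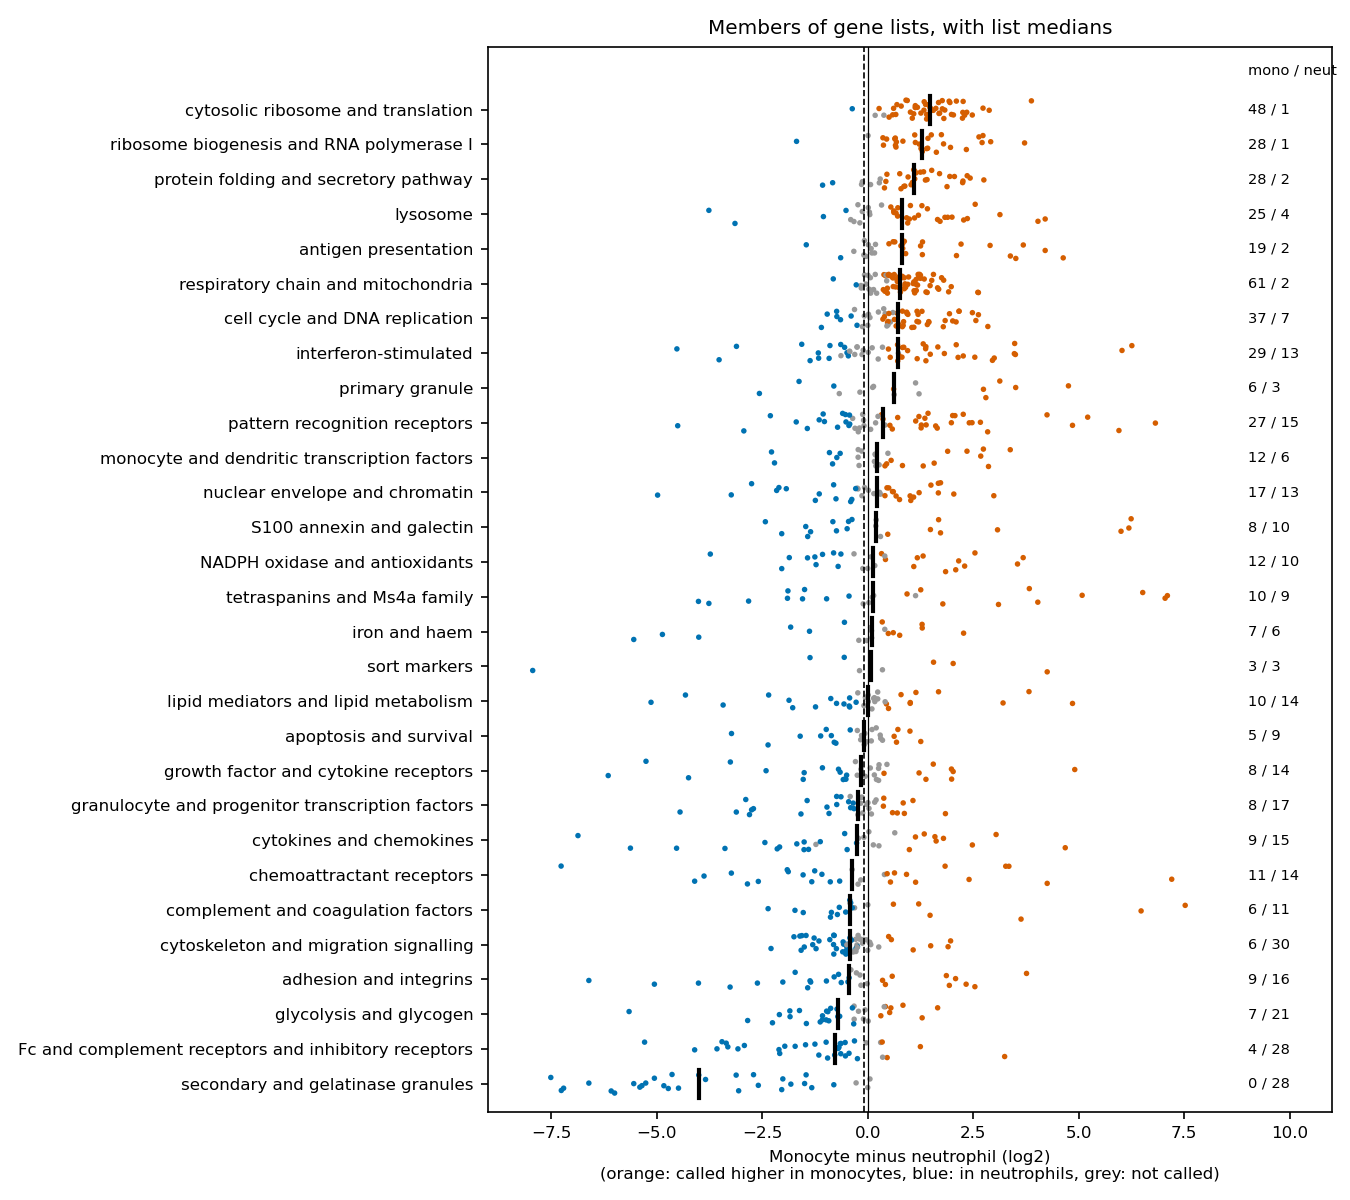
Differences (monocyte minus neutrophil, log2) of every tested member of 29 gene lists, with the median of each list as a bar and numbers of members called higher in monocytes and in neutrophils at the right. Ribosome, ribosome biogenesis, mitochondrial and secretory pathway genes lie mostly above 0, and secondary granule genes and Fc and inhibitory receptors mostly below, while the dashed line marks the median over all tested genes.

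Genes for building proteins were mostly higher in monocytes. Of 51 ribosomal protein and translation factor genes tested, 48 were higher in monocytes and 1 in neutrophils (median 1.47). That 1 was Eif4ebp1, an inhibitor of translation initiation, at -0.37. It was lost without monocyte array 1, 2 or 4 (-0.26, -0.38 and -0.38) and without neutrophil array 1 or 4 (-0.29 and -0.35). Within arrays 4 and 5 it was -0.16 (adjusted p = 0.462 by limma). The initiation factor subunit Eif3e was 7.35-fold higher in monocytes. Ribosomal protein genes share sequence with many processed pseudogenes, so their probe sets may not be specific to the genes named. For ribosome assembly, 28 of 30 genes were higher in monocytes (median 1.28). Fbl, the fibrillarin that methylates ribosomal RNA, read 9.39, 9.53, 9.49 and 9.48 against 6.02, 5.98, 5.45 and 5.57 (13.1-fold) by its brighter probe set. Its other probe set averaged 5.98 in monocytes and 5.37 in neutrophils, a difference of only 0.60. Nucleophosmin (Npm1) was 6.54-fold higher in monocytes. Polr1a, the largest subunit of RNA polymerase I, was 3.22-fold higher in neutrophils, although Polr1b was 0.67 and Polr1e 0.45. Polr1b did not pass within arrays 4 and 5 (0.31), nor did Polr1e within arrays 1 and 2 (0.41). In the secretory pathway 28 of 35 genes were higher in monocytes (median 1.09), such as the oligosaccharyltransferase subunit Rpn2 (6.74-fold), the chaperone Hsp90b1 (3.85-fold) and the stress sensor Ern1 (4.15-fold). The 2 higher in neutrophils were Ddit3 (CHOP, -1.07) and Dnajb9 (-0.83).

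Cell cycle genes were higher in monocytes in 37 of 57 and in neutrophils in 7 (median 0.72). Among those of DNA replication, Pcna, the replication clamp, read 10.51, 10.48, 10.35 and 10.31 in monocytes and 8.51, 8.39, 8.58 and 8.43 in neutrophils, and the helicase subunit Mcm6 and the kinase Cdk4 were 5.58- and 7.19-fold higher. Of genes of mitosis, Mki67 was 0.72 ± 0.19 (SE, adjusted p = 0.00286 by limma), while Cdk1 (0.38), Aurka (-0.13) and Cdc20 (-0.080) did not pass. Cdk1 passed in the fit of the 8 control arrays alone (limma adjusted p = 0.0356) and with the array set as a block (0.0167). On the neutrophil side were inhibitors of the cycle, Cdkn1b (p27, 1.94-fold) and Cdkn2d (p19, 2.14-fold), and cyclin Ccnd2 (-0.74). The Cdkn2d difference was -0.54 within arrays 4 and 5 (limma adjusted p = 0.0556).

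Of 39 genes of the nuclear envelope and chromatin tested, 17 were higher in monocytes and 13 in neutrophils (median 0.22), or 76.9% called beside 58.6% of all genes tested. Syne1, a large nesprin that links the nucleus to the cytoskeleton, read 9.89, 10.03, 10.03 and 10.01 in neutrophils and 4.74, 4.39, 5.91 and 5.02 in monocytes (31.5-fold). Its partner in the inner membrane, Sun2, was 4.30-fold higher in neutrophils and the paralog Sun1 2.12-fold higher in monocytes. Lbr, the lamin B receptor needed for nuclear lobes, and Lmnb1 were higher in neutrophils (-0.75 and -1.15). Padi4, which citrullinates histones and takes part in extracellular traps, was 9.40-fold higher in neutrophils, and its paralog Padi2 7.93-fold higher in monocytes (7.78, 7.66, 7.68 and 7.74 against 4.71, 4.69, 4.74 and 4.77). Chromatin enzymes Hdac2, Ezh2 and Dnmt1 were higher in monocytes (2.04, 1.67 and 1.50), and Hdac4 and Kdm6b in neutrophils (-1.93 and -2.16).

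Of 27 regulators of cell death tested, 9 were higher in neutrophils, 5 in monocytes and 13 did not pass (median -0.081). That was 51.9% called, beside 58.6% of all genes tested, whose median was -0.077, so the list did not stand out. Fas, the death receptor, was 3.03-fold higher in neutrophils. Gadd45a, a growth arrest gene, had the largest difference of these (10.30, 10.11, 10.26 and 10.41 in neutrophils and 6.62, 6.61, 7.58 and 7.37 in monocytes). Mcl1, on which neutrophil survival depends, was high in both and -0.41. Bcl2 and the initiator caspase Casp8 were 2.00- and 2.39-fold higher in monocytes.

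Cytoskeletal and migration signalling genes were more often higher in neutrophils, 30 of 55 against 6 in monocytes (median -0.42). Arrb2, beta-arrestin 2, which turns off chemoattractant receptors, was 4.89-fold higher in neutrophils, and Rgs18, an inhibitor of G protein signalling, 3.36-fold. Tagln2 and Tmsb10, which bind actin, were 3.90- and 3.74-fold higher in monocytes.

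Small calcium-binding proteins and galectins included very unequal members. S100a8 and S100a9, which form calprotectin, were high in both cells and 2.55- and 2.68-fold higher in neutrophils (12.99, 12.98, 13.09 and 13.13 against 11.07, 10.72, 12.52 and 12.19 for S100a9). S100a4, S100a10 and Lgals1 were 72.9-, 64.1- and 75.6-fold higher in monocytes. S100a10 read 10.71, 10.81, 10.17 and 10.37 in monocytes and 5.08, 4.48, 4.10 and 4.38 in neutrophils, yet its binding partner Anxa2 was -0.74, slightly higher in neutrophils. Other annexins divided, with Anxa1 4.10-fold higher in neutrophils and Anxa4 8.43-fold higher in monocytes.

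Interferon-stimulated genes were measured 3 weeks after the last injection of an interferon inducer. Of 55 tested, 29 were higher in monocytes, 13 in neutrophils and 13 did not pass (median 0.71). Members of the same gene families had opposite orders. Slfn4 read 11.28, 11.51, 11.26 and 11.48 in neutrophils and 6.12, 6.64, 7.35 and 7.34 in monocytes, and Slfn1 was 2.95-fold higher in neutrophils, while Slfn5, Slfn8 and Slfn9 were 7.76-, 3.52- and 4.80-fold higher in monocytes. Ifitm1 was 11.5-fold higher in neutrophils and Ifitm3 level (0.11, 95% interval -0.10 to 0.31). Mx1 and Mx2 were at least 11.2- and 11.1-fold higher in monocytes. Oas3 and Rsad2 were -1.36 and -0.89. The untreated arrays, 1 of each cell, gave differences of -4.79 for Slfn4, 3.25 for Slfn5, 3.0 for Mx1 and -3.57 for Ifitm1, the same order as after poly(I:C) in each case.

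Genes of the Ifi200 family, sensors of nucleic acids that lie side by side in the genome, formed a run of 7 neighbouring tested genes higher in monocytes. They were Aim2, Ifi206, Ifi213, Ifi209, Ifi207, Ifi203 and Ifi205, with differences from 1.27 to 6.26. A run is defined by a shared order at 2-fold or more, so that order is not a separate result. Ifi207 read 9.96, 10.27, 9.96 and 10.34 in monocytes and 4.60, 5.19, 5.29 and 5.71 in neutrophils. These copies are closely related, so their probe sets may share signal. The core of the interferon-stimulated response element that IRF factors recognise is GAAA repeated after a gap of 2 bases. Among genes with a promoter, it was present in the 250 bases before 8 of 113 at least 8-fold higher in monocytes (7.08%). It was present before 5 of 119 at least 8-fold higher in neutrophils (4.20%) and 336 of all 10628 (3.16%). Whether these few matches differ from the share of all genes was not tested. The promoters of Ifi207 (chr1:173741810-173742059, minus strand) and Ctss (chr3:95526536-95526785, plus strand) are shown for 2 monocyte genes with such a match close before the start, in capitals, 5′ to 3′ on the gene's strand in GRCm38.p6 (RefSeq).
Ifi207: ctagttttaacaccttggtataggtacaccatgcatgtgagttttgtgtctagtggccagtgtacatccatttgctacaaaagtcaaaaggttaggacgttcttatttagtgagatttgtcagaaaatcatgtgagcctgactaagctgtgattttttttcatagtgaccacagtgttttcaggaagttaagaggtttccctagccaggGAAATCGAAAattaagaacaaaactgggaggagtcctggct
Ctss: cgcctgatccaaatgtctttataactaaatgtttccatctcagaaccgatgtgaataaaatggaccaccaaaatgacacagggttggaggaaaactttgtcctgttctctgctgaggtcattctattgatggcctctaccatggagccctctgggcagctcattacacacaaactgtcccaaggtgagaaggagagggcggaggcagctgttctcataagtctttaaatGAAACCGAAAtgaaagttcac

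Slc40a1, ferroportin, the iron exporter of the cell surface, read 8.26, 8.55, 8.18 and 8.20 in neutrophils and 3.56, 3.25, 3.88 and 3.04 in monocytes, the latter all below the 40th percentile, and the iron-binding granule proteins Ltf and Lcn2 had the same order (Lcn2 16-fold). The ferritin light chain Ftl1 did not pass (0.093, 95% interval -0.26 to 0.45) and the heavy chain Fth1 -0.55. The bilirubin-forming Blvra was 4.83-fold higher in monocytes. Several tetraspanins were higher in neutrophils, with Cd9, Cd81, Cd82 and Cd37 at -4.01, -2.82, -1.90 and -1.54, although Tspan31 was 8.56-fold higher in monocytes. Several genes of the Ms4a family, which encode membrane proteins, were higher in monocytes, and Ms4a6c read 10.90, 10.75, 10.71 and 10.92 against 3.89, 3.86, 3.28 and 4.07. Genes of lipid mediators split as well. Ptgs2 (cyclooxygenase-2) and Alox5 (5-lipoxygenase) were 35.1- and 19.9-fold higher in neutrophils, together with Lta4h (3.43-fold), which makes leukotriene B4. Hpgd, which inactivates prostaglandins, was 28.9-fold higher in monocytes (9.99, 9.98, 9.28 and 8.90 against 5.03, 4.75, 4.31 and 4.66). Dgat1 and Dgat2, which make triglycerides, were 10.7- and 5.09-fold higher in neutrophils, and lipoprotein lipase (Lpl) and Apoe at least 14.1-fold and 9.23-fold higher in monocytes.

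Some unequal genes lie next to each other. Runs of 4 or more neighbouring tested genes that all differed at least 2-fold the same way numbered 15 for monocytes and 7 for neutrophils, by RefSeq gene order. The longest monocyte run had 9 genes, those of the Ms4a cluster and the neighbouring AW112010, with differences from 1.26 to 7.10. The neutrophil runs held the Trem cluster (7 genes in the run, -5.29 to -2.08), with Trem1, Trem3, Treml2, Treml4 and genes known only by clone names, and the stefin genes Stfa2 and Stfa3. The orosomucoid genes Orm1 and Orm2 were also higher in neutrophils (-2.70 and -1.49), and so were Il1f9 and Il1rn, which are near each other. Many of these neighbours are copies of one another, so shared probe signal cannot be told apart from joint expression.

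Some genes were strong in both cells with little difference between them. Both means reached 10 or more for 177 genes, and for 50 of them the 95% interval of the difference lay within 0.5 either way. The closest included Cybb, Rgs2, Msn (moesin, which ties actin to the membrane) and Clic1, at 0.00093, 0.00049, 0.0052 and 0.0010. Sirpa, the receptor of the CD47 signal, was among them (10.62, 10.80, 10.56 and 10.49 in monocytes, 10.78, 10.73, 10.61 and 10.49 in neutrophils), and its ligand Cd47 was -0.18 and did not pass, but did with the sets as a block (limma adjusted p = 0.0204). The small differences of these bright genes depended on the scaling. After quantile normalization between arrays Rgs2 and Clic1 turned to -0.38 and -0.38 and were called higher in neutrophils (limma adjusted p = 6.01e-04 and 0.00132). Sirpa and Cd47 were then -0.51 and -0.65 and called too, and Cybb and Msn were -0.40 and -0.46 and did not pass.

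The untreated Zeb2(fl/fl) arrays, 1 of each cell, gave a comparison without replicates and without poly(I:C). Of the 1804 genes at least 2-fold higher in monocytes after poly(I:C), 1801 had the same sign there, and of the 958 in neutrophils all 958. Ly6g read 4.10 and 11.90 in the untreated monocyte and neutrophil array, Ccr2 10.98 and 3.59, Irf8 8.23 and 4.93, and Mpo 7.90 and 5.70. The untreated monocyte Mpo value lay near those of monocyte arrays 1 and 2.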

How the data were processed

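RNA of sorted bone marrow cells was measured on 18 Affymetrix Mouse Gene ST arrays. The deposited values are log2 intensities per probe set that the authors made by robust multi-array averaging, as the submitters' processing notes name it (RMA). Its software is not given in the sources used here. Arrays count no reads, so their number limits the precision.

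Of 30177 probe sets, 21789 had 1 gene symbol in the platform annotation, 1621 had several and 6767 had none. Probe sets with several symbols or none were left out. The other probe sets gave 19938 genes, each by its probe set with the highest mean over the arrays. A gene was tested where it was above the 40th percentile of the array in at least 4 of 18 arrays, which kept 13387. Limma 3.58.1 in R 4.3.3 fitted a mean for each of the 6 groups over all 18 arrays (12 residual degrees of freedom, eBayes with a variance trend), and Benjamini-Hochberg adjustment ran over all genes tested. Tested on simulated data of this comparison with 13387 genes, the fit recovered 89 of 100 genes changed 2-fold and 100 of 100 changed 4-fold, with 7 false calls. The simulated noise was independent between genes and arrays and held no array sets. These figures therefore check the fit and do not give its error rate on the real arrays.

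The cells compared and the gene lists were chosen with earlier results of these data known. Named genes were fixed members of the lists, the largest differences of each list and over all genes, the smallest differences among bright genes, and runs of neighbouring genes, without overlap between arrays where they were picked for size. Some names given as exceptions to a list, as paralogs or as family members fall outside that rule and were chosen after their values were seen. Promoters are those of RefSeq on GRCm38.p6. Alternatives changed the arrays in the fit, blocks, filter, scaling, trend, probe set choice and single arrays.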

Additional observations from a re-analysis of the deposited data

Results flagged for a closer look

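In a group of 4 arrays, the highest or the lowest value was looked at again where its gap to the nearest other array, as a share of the group's range, passed the 95% critical value of Dixon's test. This held for 20 of 600 groups, from 300 named genes in 2 cell types. Chance gives about 1 in 20 groups. Every such group had a range under 1 on the log2 scale. The arrays concerned were neutrophil array 2 in 7 groups, neutrophil array 4 in 5, monocyte array 2 in 4, neutrophil array 1 in 2 and monocyte arrays 1 and 4 in 1 each.

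In neutrophil array 2, Aim2 read 7.21 (others 7.79 to 7.91), Anxa1 11.95 (others 11.63 to 11.67) and Cd47 11.01 (others 10.82 to 10.83). There too, Cysltr1 read 4.99 (others 4.10 to 4.24), Dhrs9 10.26 (others 9.90 to 9.95) and Ifnar1 7.86 (others 7.71 to 7.73). In the same array, Msn read 10.61 (others 10.40 to 10.44). In neutrophil array 4, Anxa4 read 4.15 (others 4.64 to 4.73), Cd80 7.72 (others 7.03 to 7.13) and Cfp 8.98 (others 9.27 to 9.33). There too, Elane read 4.85 (others 5.01 to 5.04) and Mx2 3.01 (others 2.44 to 2.53). In monocyte array 2, Arrb2 read 7.95 (others 7.76 to 7.79), Crip1 12.31 (others 12.13 to 12.15) and P2rx4 7.15 (others 7.41 to 7.44). There too, Rgs18 read 7.74 (others 7.52 to 7.55). In neutrophil array 1, Egr1 read 7.25 (others 8.0 to 8.10) and Syne1 9.89 (others 10.01 to 10.03). In monocyte array 1, Zeb2 read 10.08 (others 9.86 to 9.88). In monocyte array 4, Osm read 5.44 (others 5.24 to 5.26).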

How the results depend on the processing

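Counts of genes called, and of genes called at 2-fold or more, each way, stayed within 1.5 times their main values under every alternative run. The 7846 genes called became 8212 from the 8 control arrays alone, 9051 with no filter on low values and 6203 with a filter at the 60th percentile, where only 9229 genes were tested and the median of all genes moved by 0.14. Quantile normalization gave 7932, of which 44.0% were higher in monocytes against 51.0%. Leaving out 1 array at a time gave 7034 to 7440 genes in all, 3713 to 3861 higher in monocytes and 3321 to 3591 higher in neutrophils. At 2-fold or more it gave 1740 to 1860 and 948 to 986. Within arrays 1 and 2 the count was 6350 and within arrays 4 and 5 it was 6421. With the array set as a block it was 8628.

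The replicate block, from the numbers in the titles, gave 8332 genes, 4283 higher in monocytes and 4049 in neutrophils. Deviations of same-numbered arrays from their group means correlated at 0.059, 0.26, 0.16 and 0.22 for numbers 1, 2, 4 and 5, so the numbers were not taken to pair the arrays.

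Of 300 named genes tested, 277 stayed on their side of the threshold under every alternative that tested them (the stricter filter left 3 untested) and 23 did not. No gene that passed in the main comparison changed sign. In 15 genes that did not pass, the sign turned in some alternative, and 2 of them were then called, both after quantile normalization: Rgs2 at -0.38 and Clic1 at -0.38. Cybb, Msn, Ftl1, Hk2 and Ifitm3 also turned there without passing, at -0.40, -0.46, -0.34, -0.17 and -0.033. The cause was not tested. Most of the other changes were gained or lost calls of differences under 0.6 on the log2 scale. Medians of 30 lists moved by more than the spread between arrays in at least 1 alternative. Signals below the 40th percentile give lower bounds only, and the ages, sexes and separate origin of the animals are not in the labels.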

Other observations

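Genes outside the lists held large differences too. Those named here were picked by the size of their difference after the values were seen, and are given as values. Among genes higher in monocytes, Crip1, a small LIM-domain protein, read 12.13, 12.31, 12.15 and 12.14 in monocytes and 6.60, 6.36, 5.51 and 5.98 in neutrophils (67.3-fold). Pld4, an exonuclease of endosomes that degrades single-stranded nucleic acids, read 10.35, 10.43, 10.22 and 10.22 and 3.66, 4.21, 4.43 and 4.24, the neutrophil mean below the 40th percentile. Vcan, the matrix proteoglycan versican, averaged 9.31 ± 0.33 (SD, n = 4) and 3.60 ± 0.20 (SD, n = 4), at least 52.4-fold apart. The calcium-dependent protease Capn2 and the large scaffold Ahnak were 40.6- and 26.3-fold higher in monocytes, the first as a lower bound.

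Among genes higher in neutrophils, Actn1, the actin crosslinker alpha-actinin 1, read 10.26, 10.36, 10.24 and 10.26 in neutrophils and 4.44, 3.77, 5.11 and 4.59 in monocytes (55.9-fold). Cd55, the decay-accelerating factor that protects cells from complement, averaged 8.48 ± 0.10 (SD, n = 4) and 3.20 ± 0.14 (SD, n = 4), at least 39-fold apart. Dhrs9, a retinol and steroid dehydrogenase, and Scrg1 were at least 66.9- and 86.6-fold higher in neutrophils. The monocyte and neutrophil arrays did not overlap for these genes. That was a condition where names were picked for size, and it held for 56.2% of all genes tested.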
